A study of Mus musculus with 12 samples.

Results

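The genes described here are 10 components of bone morphogenetic protein (BMP) and transforming growth factor beta (TGF-beta) signaling: the ligands Bmp2, Bmp4, Bmp7 and Tgfb2, the receptors Bmpr1a, Bmpr1b, Bmpr2, Tgfbr1 and Tgfbr2, and the inhibitory Smad gene Smad6. They were chosen by gene symbol, all 10 were found among the 24421 entries of the expression table, and all 10 passed the filter on low values. RNA was sequenced from GFP-positive cells sorted from the cerebellum of Aldh1l1-GFP reporter mice on a C57/BL6J background, with both sexes used. The mice were at postnatal day 1 (P1), P7, P14 or P28, with 3 libraries at each of the 4 time points and 12 in all, and no treatment or other allele separated the groups. GFP was driven by the promoter of Aldh1l1, a folate enzyme gene that marks astrocytes, so any cell with an active Aldh1l1 promoter could enter the sort. The labels give each library a replicate number but name no animals, so the p-values below measure only the spread between these libraries, which may be technical. The depth was 11478899 to 14733985 counted reads a library at P1 and 6399499 to 11328604 at P7, and 9470510 to 9856910 at P14 and 7965152 to 10269334 at P28. Values are normalized read counts, that is, reads divided by 1 size factor per library. Within a time point, libraries correlated on the log2 scale across genes with r from 0.928 to 0.951 at P1 and 0.950 to 0.965 at P7, and from 0.898 to 0.913 at P14 and 0.849 to 0.862 at P28, so the P28 libraries differed most among themselves.

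BMP and TGF-beta ligands are secreted dimers that bring together type I and type II receptor kinases at the cell surface. The type II receptor then phosphorylates the type I receptor, which phosphorylates receptor Smads: Smad1, Smad5 and Smad9 after BMPs, and Smad2 and Smad3 after TGF-betas and activins. Receptor Smads join Smad4 and enter the nucleus, while Smad6 and Smad7 are feedback inhibitors, Smad6 acting mainly on the BMP branch. In neural tissue, BMPs favor astrocyte over oligodendrocyte fate and restrain the proliferation of cerebellar granule neuron precursors, and TGF-betas are also secreted by astrocytes.

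Promoter sequence is described before the expression values, because Smad6 is itself a known target of BMP-activated Smads. The words searched on both strands were GTCTAGAC, a palindrome bound by Smad3 and Smad4, and GGCGCC, a GC-rich palindrome bound by Smad1 and Smad5 complexes. The windows ran from 250 bases before to 50 bases after each start site in RefSeq (GRCm38.p6), and the words were chosen with the expression values known. Windows were found for 8 of the 10 genes (11 windows), with no entry for Bmp2 and Bmp7. GTCTAGAC was present in 0.213% of all 32851 windows and, among the 10 genes, in the window of Smad6, where its first base lies 4 bases before the start. GGCGCC was present in 11.9% of all windows and in those of Bmpr1a, Bmpr2 and Tgfbr1. Among the other pathway genes described below it was present in 20 of 95 windows, those of 18 of the 76 genes with a window, Smad5 and Smad9 among them. The stretches around the matches are shown 5′ to 3′ on the gene's strand, with the word in capitals, since they are the places where the pathway's own effectors could be looked for. They come from chr9:64022056-64022103 (minus strand) for Smad6, chr14:34502719-34502784 (minus) for Bmpr1a, chr1:59764134-59764199 (plus) for Bmpr2 and chr4:47352972-47353014 (plus) for Tgfbr1.
Smad6: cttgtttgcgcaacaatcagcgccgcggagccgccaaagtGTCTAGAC
Bmpr1a: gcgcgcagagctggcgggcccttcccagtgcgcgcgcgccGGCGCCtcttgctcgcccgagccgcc
Bmpr2: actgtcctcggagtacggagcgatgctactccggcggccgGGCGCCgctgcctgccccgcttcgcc
Tgfbr1: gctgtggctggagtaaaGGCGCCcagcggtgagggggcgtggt
A match is a description of these letters and not evidence of binding, and no match in a window says only that the word is not in that window.

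Marker genes of astrocytes and of other cerebellar cell types were summed in each library as a background for these values. All 10 astrocyte markers were in the table, and their sum was 55929 to 72377 normalized reads at P1 and 27608 to 51333 at P7, and reached 146551 to 184185 at P14 and 348122 to 406846 at P28, with Slc1a3 (the glutamate transporter GLAST) the most abundant of them. The sum of the 10 dividing cell markers was 9332 to 16081 at P1 and 20884 to 26716 at P7, and only 1339 to 1962 at P14 and 588 to 921 at P28. That of the 8 oligodendrocyte markers, led by Mbp, was 1525 to 2369.9 at P1 and 21699 to 33361 at P7, and 311037 to 369681 at P14 and 101890.5 to 141604 at P28. Granule neuron markers summed to 1379.7 to 1639.6 at P1, 15132 to 30042 at P14 and 9745 to 13815 at P28, and that of the choroid plexus markers was 1258 to 2728 at P1 and 49517 to 130504 at P7. A single choroid plexus gene, Ttr, held 47082 to 125927 of the P7 sums. With Ttr left out, the remaining 9 genes summed to 991 to 2439 in P1 libraries and 2435 to 4577 in P7 libraries. Aldh1l1, the gene of the reporter, did not follow the astrocyte sum, with 6441, 4741 and 3841 at P1, 1985, 936 and 1488 at P7, 1834, 1978 and 1824 at P14 and 2451, 3338 and 2974 at P28, and was called lower at P28 than at P1 (-0.76 ± 0.25, limma adjusted p = 0.0286). Some libraries stood apart within their time point. Replicate 2 at P1 and replicate 2 at P7 had the highest sums of the 8 endothelial markers of their groups (645, 3213 and 899.6 at P1 and 2039, 7949 and 1279.8 at P7) and of the 8 meningeal fibroblast markers (19708, 36628 and 8667 at P1 and 9861, 22149.5 and 14794 at P7). Replicate 3 at P14 and replicate 3 at P28 had the lowest sums of the 10 choroid plexus markers, led by Ttr (111767, 65121 and 1399 at P14 and 106108, 185229 and 18074 at P28). Values without 1 of these libraries are given for several results below, but not for every gene named.

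**Figure D1:**
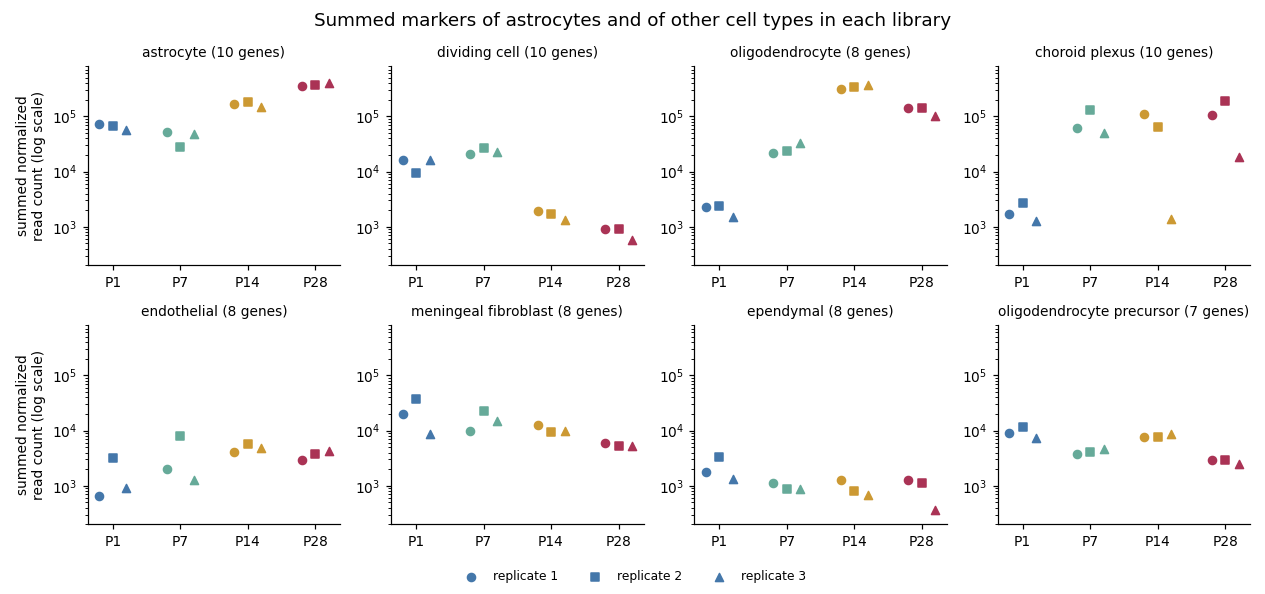
Summed normalized read counts (y axis, log scale) of the markers of 8 cell types in each library (x axis, time point; symbol, replicate number). Astrocyte sums were higher in every P28 library than in any P14 library, dividing cell sums were lower in every P14 and P28 library than in any P1 or P7 library, and choroid plexus sums varied widely within P14 and within P28.

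Expressed per kilobase of exon so that genes can be compared, the mean level over the 12 libraries was highest for Bmpr1a (336 normalized reads per kb) and Bmpr2 (265), followed by Bmp4 (211), Bmp7 (193), Bmpr1b (160.4), Tgfb2 (96.1), Tgfbr1 (78.5) and Tgfbr2 (35.6). Bmp2 (12.2) and Smad6 (7.46) were the lowest. The order changed with age. At P7 Tgfbr1 (115 per kb) was above Bmpr1b (74.2), whereas at P28 Bmpr1b (240.1) was above Tgfbr1 (40.1), and at P1 Tgfb2 (128) was above Bmp4 (97.1), whereas at P14 Bmp4 (280.4) was above Tgfb2 (63.3). Bmpr1a and Bmpr2 had higher means per kb than both TGF-beta receptors at all 4 time points. Changes between time points were tested with limma on log2(normalized count + 1) in a single fit of all 12 libraries over 15464 genes, and a gene was called at a Benjamini-Hochberg adjusted p under 0.05. The added 1 and the averaging of logs bear on the fold of low genes, which differed between tools. From P1 to P28, Bmp2 was -2.88 by limma and -2.08 by edgeR, and Smad6 was -3.58 and -2.73.

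Between P1 and P7, 2 of the 10 genes were called, Bmpr1a and Bmpr1b, both lower at P7, where 7.70% of all genes tested were called and 4.24% were called lower. From P7 to P14, 2 were called, Bmpr1b (higher) and Tgfbr1 (lower), against 20.9% of all genes. From P14 to P28, 2 were called, Bmpr1a (higher) and Tgfbr1 (lower), against 14.4%. Between P1 and P28, 4 were called, Bmp2, Bmp7, Tgfbr1 and Smad6, all lower, against 34.6% of genes called in either direction and 20.0% called lower. The 3 libraries of the time points compared did not overlap for 3 of the 10 genes in each of these 4 comparisons, against 38.3%, 46.1%, 26.1% and 41.9% of all genes. The median log2 fold change of the 10 genes was -0.11, -0.06, -0.27 and -0.46 in the 4 comparisons, beside 0.04, -0.09, -0.12 and -0.24 over all genes. With 10 genes, these counts do not set the group apart from other genes, and the results lie in the single genes. In the consecutive steps the genes called were type I receptors. The ligands Bmp2 and Bmp7 and Smad6 were called from P1 to P28 and in none of these steps. From P7 to P28, Bmpr1a (0.83 ± 0.18, limma adjusted p = 0.00197) and Bmpr1b (1.67 ± 0.27, adjusted p = 0.000253) were called higher. Tgfbr1 (-1.52 ± 0.20, adjusted p = 5.12e-05), Bmp2 (-2.90 ± 0.98, adjusted p = 0.0305) and Smad6 (-2.72 ± 0.97, adjusted p = 0.0385) were called lower. For this pair, 16.2% of all genes were called higher and 23.0% lower. In RNA from sorted cells, fewer cells of a type and less RNA per cell cannot be told apart. Scaling by library totals alone lowered the median over all genes to -0.34 from P7 to P14, -0.35 from P14 to P28 and -0.67 from P1 to P28, and where it altered a call of the 10 genes in these comparisons, the value is given beside this median.

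**Figure D2:**
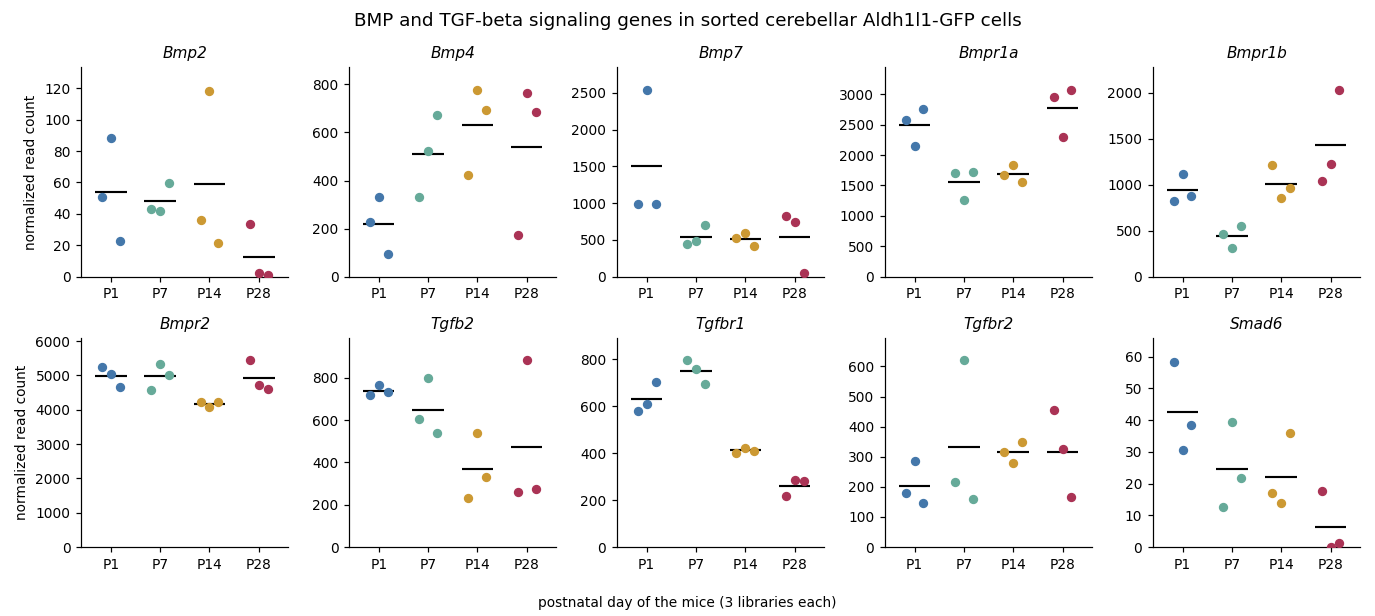
Normalized read counts (y axis, linear from 0) of the 10 genes in each of the 3 libraries of each time point (x axis), with the mean as a black line. Bmpr1b was lowest in the libraries at P7, Bmpr1a was lower in the libraries at P7 and P14 than at P1 and P28, the libraries of Tgfbr1 at P14 and P28 lay below all libraries at P1 and P7, and single libraries set much of the spread of Bmp7, Tgfb2 and Tgfbr2.

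**Figure D3:**
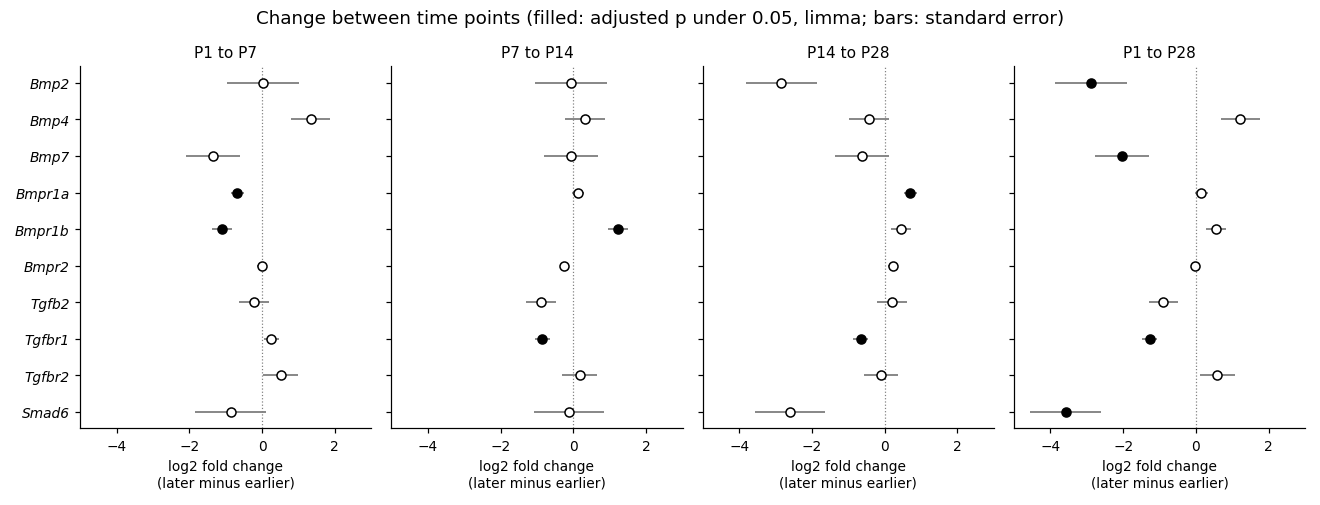
Log2 fold changes (x axis, later minus earlier time point) with standard errors for the 10 genes in the 3 consecutive steps and from P1 to P28, with filled points for an adjusted p under 0.05 by limma. Bmpr1b fell by 1.11 and then rose by 1.22, Tgfbr1 fell in each of the last 2 steps, and the low genes Bmp2 and Smad6 had the widest errors.

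Among the ligands, Bmp2 and Bmp7 were lower at P28 than at P1, while neither Bmp4 nor Tgfb2 was called in any of the 4 comparisons. Bmp2 (chr2:133552159-133562885, plus strand, GRCm38), a ligand of the Bmpr1a and Bmpr1b receptors, had 50.4, 88.6 and 22.7 at P1, 43.0, 41.9 and 59.7 at P7, 36.0, 118 and 21.7 at P14 and 33.6, 2.36 and 1.35 at P28. It was low throughout, and at P28 replicates 2 and 3 held 2 reads and 1 read while replicate 1 held 23. Replicate 1 at P28 lay within the P1 and P14 ranges but below all P7 libraries. The mean went from 53.9 ± 33.1 (SD, n = 3) at P1 to 12.4 ± 18.3 at P28, a log2 fold change of -2.88 ± 0.98 (SE; limma adjusted p = 0.0351). The P14 to P28 change was -2.84 ± 0.98 (adjusted p = 0.0683), and in the order of the means (P14, P1, P7, P28) only P7 and P28 differed among neighbors (adjusted p = 0.0305, where 39.2% of all genes were called). The P1 to P28 call was lost without replicate 1 or 2 at P1 or replicate 2 or 3 at P28 (adjusted p up to 0.125 without P1 replicate 2) and with edgeR (0.142) and DESeq2 (0.0751). Without replicate 1 at P28 the P14 to P28 change was -4.05 (adjusted p = 0.00599).

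Bmp4 (chr14:46383520-46390669, minus strand), which is made in the brain by cells of the oligodendrocyte lineage among others, had 229, 332 and 93.9 at P1, 329.6, 522 and 674 at P7, 422, 776 and 693 at P14 and 175, 762 and 686 at P28. The highest libraries were at P14 and P28, but replicate 1 at P28 lay within the P1 range. Its means were 218 ± 119 (SD, n = 3) at P1 and 508 ± 172 at P7, and 630.3 ± 186 at P14 and 541 ± 319 at P28. Bmp4 was higher at P14 than at P1 without overlap, by 1.66 ± 0.54 on the log2 scale (limma adjusted p = 0.0434, where 20.4% of all genes were called), while no neighbors in the order P14, P28, P7, P1 differed. The P1 to P28 difference was 1.22 ± 0.54 (adjusted p = 0.0949) with all libraries and 1.90 (adjusted p = 0.00705) without replicate 1 at P28, and DESeq2 called it (adjusted p = 0.0398). The summed oligodendrocyte markers were also highest at P14. At P28 this sum was 138266, 141604 and 101890.5 in replicates 1, 2 and 3, and that of the 7 oligodendrocyte precursor markers was 2892, 2991 and 2488, neither being lowest in replicate 1. Of the precursor markers, Gpr17, the most abundant over the 12 libraries, had 699, 1901 and 1228 and was lowest in replicate 1, and the other 6 together had 2194, 1089.8 and 1260.4 and were highest there. The precursor sum was 7311 to 11494 at P1, where the mean of Bmp4 was lowest. The part of these cells in the Bmp4 values was not tested. Bmp4 overlaps Gm15217 and Gm15222 on the opposite strand, and whether reads were counted by strand is not given in the sources used here, so their reads cannot be told apart from those of Bmp4.

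Bmp7 (chr2:172868012-172940321, minus strand), a ligand known from the meninges, choroid plexus and ependyma as well as from glia, had 983, 2540.0 and 987 at P1, 447, 486 and 698 at P7, 529.5, 598 and 418 at P14 and 829, 747 and 56.8 at P28. All P1 libraries exceeded all others, replicate 2 at P1 held the highest value by a wide margin, and replicate 3 at P28 was the lowest by far. The mean was 1503 ± 898 (SD, n = 3) at P1 and 544 ± 136 at P7, and 515 ± 90.7 at P14 and 544 ± 424 at P28. The P1 to P28 difference was -2.04 ± 0.74 (limma adjusted p = 0.0453) and the P1 to P7 difference, without overlap, -1.34 ± 0.74 (adjusted p = 0.37). Along the order of the means (P1, P28, P7, P14) only P1 and P28 differed among neighbors. Both comparisons turned on single libraries. Without replicate 3 at P28 the P1 to P28 difference was -0.78 (adjusted p = 0.11) while the P1 to P7 difference, at the same size, reached an adjusted p of 0.0176. The P1 to P28 call was also lost with DESeq2 (-1.47, adjusted p = 0.0547), edgeR (-1.42, 0.0985), a pseudocount of 0.1, no filter and the 6 libraries alone, and when any of 10 of the 12 libraries was left out (adjusted p up to 0.167 without P1 replicate 2). The 8 ependymal markers, led by Foxj1, had the same extreme libraries, with sums of 1813, 3257 and 1333 at P1, 1125, 890.0 and 866 at P7, 1289.9, 811 and 692 at P14 and 1296, 1135 and 369 at P28, and Rsph1 at 0 in replicate 3 at P28. The meningeal sum was also highest in replicate 2 at P1 (36628) and lowest of the 12 libraries in replicate 3 at P28 (5261, beside 5841 and 5283). Without Col1a1, the other 7 meningeal markers had 3975, 4254 and 4618 at P28, with replicate 3 the highest of these. The choroid plexus sum was lowest of the P28 libraries there, but it was also low in replicate 3 at P14 (1399), where Bmp7 was 418, and in all libraries at P1 (1258 to 2728), where Bmp7 was highest. Without Ttr, the other 9 choroid plexus markers had 991, 2439 and 1037 at P1 and 2501, 4577 and 2435 at P7, so replicate 2 at P1 lay within the P7 range. They had 4331.5, 2801 and 603 at P14 and 3680, 5663 and 706 at P28. The part of these cells in the Bmp7 values was not tested.

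Tgfb2 (chr1:186622792-186705989, minus strand), the TGF-beta isoform with the highest 12-library mean per kb here, had 719, 769 and 731 at P1, 605, 798 and 537 at P7, 233, 537 and 330.1 at P14 and 259, 883 and 275 at P28. The P1 libraries lay close together, the P14 libraries lay below all of them, and replicate 2 at P28 exceeded all other libraries. The mean was 739.6 ± 26.1 (SD, n = 3) at P1 and 647 ± 136 at P7, and 367 ± 155 at P14 and 472 ± 356 at P28, and no neighbors in the order P1, P7, P28, P14 differed. The P1 to P28 difference was -0.89 ± 0.41 (limma adjusted p = 0.105) and the P7 to P14 difference -0.88 ± 0.41 (adjusted p = 0.154). Without replicate 2 at P28 they were -1.47 (adjusted p = 0.00275) and -0.88 (adjusted p = 0.0334). Under scaling by library totals alone the P1 to P28 difference was -1.33 (adjusted p = 0.0179), beside a median of -0.67 over all genes. Tgfb2 overlaps the antisense gene Gm29491 and the small RNA gene Gm26169.

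Of the 14 other BMP family ligands listed, 6 passed the filter, and 1, 3, 0 and 5 of these were called in the 4 comparisons (all genes: 7.70%, 20.9%, 14.4% and 34.6%). The 0 from P14 to P28 was by limma, and edgeR called 0 while 1 had an unadjusted limma p under 0.05. Gdf10 (also named BMP3B), a ligand of Bergmann glia, the astrocytes whose fibers span the molecular layer, had a mean per kb below that of Rgma at P1 (203 and 1645) and P7 (266 and 366) and above it at P14 (2138 and 658) and P28 (2467 and 1209). In normalized counts, Gdf10 had 1341, 297 and 1536 at P1, 1687, 869 and 1605 at P7, 10078, 14130.0 and 9217 at P14 and 12229, 12007 and 14328 at P28. Every P14 and P28 library exceeded every earlier one, and Gdf10 rose by 3.04 ± 0.46 from P7 to P14 (limma adjusted p = 0.000294), in step with the 4 other Bergmann glia markers in the table, all called higher in that step. Bmp6, which also regulates iron balance, was the next highest of these ligands per kb and fell from P1 (584 to 1932) to P7 (321 to 388), by -1.49 ± 0.39 (adjusted p = 0.0296), a call that was lost when any of 5 libraries was left out (adjusted p up to 0.147 without P1 replicate 2). Bmp6 was highest in replicate 2 at P1 (1932), the library with the highest meningeal sum. Bmp3, named after its values were seen, went from 77.2 to 139 at P1 to 0 reads in the 3 libraries at P28, at least 75.4-fold lower (limit of 3 reads over the group; adjusted p = 2.30e-05), and Bmp8b was at least 8.36-fold lower (adjusted p = 0.0224, or 0.094 and at least 3.86-fold without P1 replicate 2). Such limits cover counting error only.

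Of 15 TGF-beta and activin family ligands listed, 9 passed the filter, and 0, 0, 2 and 5 were called (all genes: 7.70%, 20.9%, 14.4% and 34.6%). For the 2 counts of 0, 1 and 0 genes had an unadjusted limma p under 0.05, and edgeR called 0 and 0. The 2 highest per kb were Gdf11, which controls regional identity and progenitor number, and Tgfb3. Gdf11 was 95.0 to 151 at P1 and 264 to 423 at P28, a rise of 1.48 ± 0.32 (limma adjusted p = 0.00244). Tgfb3 ranged from 16.2 to 191 over the 12 libraries and was not called. Of the inhibin and activin subunit genes, Inha and Inhba fell to 1 read each over the 3 libraries at P28. Inha had 27.7, 63.6 and 46.9 at P1, 48.6, 35.3 and 45.0 at P7, 26.5, 39.1 and 119 at P14 and 1.46, 0 and 0 at P28, a P14 to P28 ratio of 139-fold (95% counting interval 24.6 to 5523) that was 74.5-fold without P14 replicate 3. The ratio of Inhba was 19.4-fold (95% counting interval 3.16 to 798), or 12.2-fold without P14 replicate 1. Without the library that held the single read at P28, the ratios were at least 32.4-fold and 4.05-fold (limit of 3 reads over the group). The limma adjusted p was 0.000858 for Inha and 0.0471 for Inhba, whose call was lost when any of 10 libraries was left out (adjusted p up to 0.144 without P14 replicate 1).

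The BMP type I receptors Bmpr1a and Bmpr1b had their lowest mean levels at P7, and the TGF-beta type I receptor Tgfbr1 had its highest mean there. Bmpr1a (chr14:34410734-34503341, minus strand), also named ALK3 and the widely expressed BMP type I receptor, had 2569.8, 2158 and 2757 at P1, 1711, 1259 and 1717 at P7, 1679, 1838 and 1562 at P14 and 2959, 2299 and 3072 at P28. The P1 and P28 libraries all exceeded the P7 and P14 libraries. Its mean was 2495 ± 307 (SD, n = 3) at P1 and 1562 ± 263 at P7, and 1693 ± 138 at P14 and 2777 ± 418 at P28. Bmpr1a fell by 0.68 ± 0.18 from P1 to P7 (limma adjusted p = 0.0287), differed by 0.13 ± 0.18 from P7 to P14 (adjusted p = 0.687) and rose by 0.71 ± 0.18 from P14 to P28 (adjusted p = 0.0172). Along the order P28, P1, P14, P7, only P1 and P14 differed among neighbors (adjusted p = 0.038). The fall was lost without P1 replicate 1 or 3 or any P7 replicate (adjusted p up to 0.143 without P7 replicate 2). The rise was lost without P14 replicate 1 or 3 (adjusted p up to 0.0649 without P14 replicate 3) and under scaling by library totals alone (0.47, adjusted p = 0.0831). Under that scaling the median over all genes was -0.35 in place of -0.12. In each of these losses, the direction stayed. Bmpr1a overlaps the antisense gene Gm17110.

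Bmpr1b (chr3:141837136-142169425, minus strand), also named ALK6 and known from neural and skeletal progenitors, had 826, 1117 and 875 at P1, 463, 313 and 550.3 at P7, 1213, 859 and 965 at P14 and 1042, 1222 and 2029.8 at P28. All P7 libraries lay below all libraries of the other time points. The mean was 939 ± 156 (SD, n = 3) at P1 and 442 ± 120.2 at P7, and 1012 ± 181 at P14 and 1431 ± 526 at P28. Bmpr1b fell by 1.11 ± 0.27 from P1 to P7 (limma adjusted p = 0.0212) and rose by 1.22 ± 0.27 from P7 to P14 (adjusted p = 0.00513). The P14 to P28 difference was 0.45 ± 0.27 (adjusted p = 0.285), and in the order P28, P14, P1, P7 only P1 and P7 differed among neighbors. The rise was called with each of the 12 libraries left out in turn. The fall was lost without P1 replicate 2 or P7 replicate 1 or 2 (adjusted p up to 0.112 without P7 replicate 2). The astrocyte marker sum was also lowest at P7, in the library with the lowest Bmpr1b (replicate 2, 27608 beside 51333 and 47734), and its part in the Bmpr1b values was not tested.

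Tgfbr1 (chr4:47353222-47414931, plus strand), also named ALK5 and the type I receptor for TGF-betas, had 578, 608 and 704 at P1, 795, 756 and 694 at P7, 401, 423 and 409 at P14 and 219, 284 and 283 at P28. All libraries at P14 lay below those at P1 and P7, and all at P28 below those at P14. Its mean was 630.0 ± 66.1 (SD, n = 3) at P1 and 749 ± 51.3 at P7, and 411 ± 11.0 at P14 and 262 ± 37.1 at P28. Tgfbr1 differed by 0.25 ± 0.20 from P1 to P7 (limma adjusted p = 0.613), fell by 0.86 ± 0.20 from P7 to P14 (adjusted p = 0.00778) and by a further 0.66 ± 0.20 in the last step (adjusted p = 0.045), and was lower at P28 than at P1 by a log2 fold change of -1.27 ± 0.20 (adjusted p = 0.000301). In the order P7, P1, P14, P28 the last 2 pairs of neighbors differed. The P7 to P14 and P1 to P28 calls were kept with every library left out in turn, whereas the P14 to P28 call was lost for 10 of the 12 libraries (adjusted p up to 0.0977 without P14 replicate 2) and with edgeR (0.0562). The dividing cell sum was also lower at P14 and P28 than in any earlier library. From P1 to P7 it was higher in every library, whereas Tgfbr1 overlapped between these groups. The part of dividing cells in the Tgfbr1 values was not tested.

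The type II receptors were not called in any comparison of these. Bmpr2 (chr1:59763400-59879014, plus strand), the main type II receptor for BMPs, had 5241, 5056 and 4660.0 at P1, 4591, 5344 and 5012 at P7, 4220.3, 4077 and 4239.6 at P14 and 5445, 4724 and 4603 at P28. The P14 libraries lay below all others, but the differences were small, at -0.25 ± 0.13 from P7 to P14 (limma adjusted p = 0.199) and 0.23 ± 0.13 from P14 to P28 (adjusted p = 0.243), and no neighbors in the order P1, P7, P28, P14 differed. Its mean was 4986 ± 297 (SD, n = 3) at P1 and 4982 ± 377 at P7, and 4179 ± 88.8 at P14 and 4924 ± 455 at P28, the smallest ratio of the highest to the lowest mean among the 10 genes. Under scaling by library totals alone it was lower by -0.51 from P7 to P14 (adjusted p = 0.0129) and -0.46 from P1 to P28 (adjusted p = 0.0146), beside medians over all genes of -0.34 and -0.67. Tgfbr2 (chr9:116084293-116175360, minus strand), the type II receptor for TGF-betas and abundant in blood vessels, had 178, 287 and 145 at P1, 217, 620.4 and 160.5 at P7, 317, 278 and 349.7 at P14 and 456, 326 and 168 at P28. The groups overlapped in every step, replicate 2 at P7 exceeded all other libraries, and the mean was 203 ± 74.5 (SD, n = 3) at P1 and 332 ± 251 at P7, and 315 ± 35.8 at P14 and 316 ± 144 at P28. The differences were 0.51 ± 0.48, 0.17 ± 0.48 and -0.10 ± 0.48 in the 3 steps (adjusted p = 0.676, 0.86 and 0.915). No neighbors in the order P7, P28, P14, P1 differed. Replicate 2 at P7 and replicate 2 at P1, the highest Tgfbr2 libraries of their groups, also had the highest endothelial sums of these groups. Without P7 replicate 2 the P1 to P7 difference was -0.06 (adjusted p = 0.988).

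Of 7 other type I and type II receptors, 6 passed the filter, and 0, 2, 0 and 2 were called (all genes: 7.70%, 20.9%, 14.4% and 34.6%). For the 2 counts of 0, 1 and 3 had an unadjusted limma p under 0.05, and edgeR called 0 and 0. Acvr1c (ALK7), a receptor for Nodal and some activins, rose from 23.6 to 44.2 at P7 to 155 to 539.7 at P14, by 3.21 ± 0.63 (limma adjusted p = 0.00212). Acvr2a, an activin type II receptor, fell in the same step from 739 to 868 to 453 to 471, by 0.82 ± 0.23 (adjusted p = 0.022), a call lost for 5 libraries (adjusted p up to 0.0793 without P7 replicate 2). Acvr1 (ALK2), a BMP type I receptor, stayed between 275 and 717 and was not called in these 4 comparisons. Of 7 co-receptors and pseudoreceptors, 6 passed the filter, and 1, 2, 0 and 3 were called, beside the same shares of all genes (7.70%, 20.9%, 14.4% and 34.6%). For the count of 0, 1 had an unadjusted limma p under 0.05, and edgeR called 0. Rgma, a BMP co-receptor and axon guidance molecule, was the highest of this list per kb at each time point. It had 8916, 9745 and 8695 at P1, 2865, 1009 and 2215 at P7, 4071, 4252 and 2627 at P14 and 5055, 6219 and 8841 at P28. Its P7 libraries overlapped with those at P14 but lay below those at P1 and P28, and Rgma fell by 2.29 ± 0.32 from P1 to P7 (limma adjusted p = 0.000486). Its rise from P7 to P14 (0.94 ± 0.32, adjusted p = 0.0475) was lost for 8 libraries (adjusted p up to 0.206 without P7 replicate 2). Eng (endoglin), an endothelial TGF-beta co-receptor, was highest in replicate 2 at P1 and at P7 (84.9, 508 and 195 at P1 and 388, 1324 and 335 at P7), as the endothelial sums were. Cd109, a TGF-beta co-receptor that dampens signaling, fell from 85.3 to 159.7 at P7 to 10.9 to 36.0 at P14, by 2.38 ± 0.66 (adjusted p = 0.0189, up to 0.0939 without P7 replicate 2, with P7 replicate 1 and P14 replicates 2 and 3 also ending the call).

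Smad6 (chr9:63953076-64022059, minus strand), the feedback inhibitor of BMP receptors, was the least abundant of the 10 genes and fell between P1 and P28. It had 58.4, 30.7 and 38.6 at P1, 12.7, 39.3 and 21.7 at P7, 16.9, 13.8 and 35.8 at P14 and 17.5, 0 and 1.35 at P28. All P28 libraries lay below all P1 libraries, but replicate 1 at P28 lay within the P7 and P14 ranges, and the 3 libraries at P28 held 12, 0 and 1 reads. The mean was 42.6 ± 14.3 (SD, n = 3) at P1 and 24.6 ± 13.5 at P7, and 22.2 ± 11.9 at P14 and 6.30 ± 9.76 at P28. The log2 fold change from P1 to P28 was -3.58 ± 0.97 (limma adjusted p = 0.0112) and depends on the pseudocount at these counts. No neighbors in the order P1, P7, P14, P28 differed, the P14 to P28 change being -2.60 ± 0.97 (adjusted p = 0.0889), or -3.80 (adjusted p = 0.00729) without replicate 1 at P28. The P1 to P28 call was kept with every library left out in turn and lost with edgeR (0.081).

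All 7 other Smad genes passed the filter, and they were called most often from P7 to P14. None was called from P1 to P7 by limma, with 2 at an unadjusted p under 0.05 and 0 called by edgeR. From P7 to P14, 6 of 7 were called, 3 higher and 3 lower, from P14 to P28 3 of 7, and from P1 to P28 4 of 7, against 20.9%, 14.4% and 34.6% of all genes. Their median log2 fold change was -0.49 in the step from P7 to P14 and 0.58 in the last step, beside -0.09 and -0.12 over all genes. All 7 are named here, of which Smad1, Smad2 and Smad4 were added after their values were seen.

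In the BMP branch, Smad9 (also named Smad8) rose while Smad5 fell. Smad9 had 207, 212 and 206 at P1, 192, 195 and 236 at P7, 763, 630.5 and 862 at P14 and 1885, 1989 and 1604 at P28. It was level across P1 and P7, and the P14 and P28 libraries did not overlap with the earlier ones or with each other. It rose by 1.85 ± 0.21 (limma adjusted p = 2.40e-05) and by 1.28 ± 0.21 (adjusted p = 0.00178), and both calls were kept with every library left out. Smad5 had 1769, 1611 and 2032 at P1, 1644, 1467 and 1689 at P7, 713, 696 and 614 at P14 and 1293, 1174 and 672 at P28. All P14 libraries lay below those of P1 and P7, with a fall of 1.25 ± 0.22 from P7 to P14 (adjusted p = 0.00104) kept with every library left out, and a P14 to P28 difference of 0.58 ± 0.22 (adjusted p = 0.0938). Smad1, the third BMP receptor Smad, ranged from 145 to 501 and was not called in these comparisons.

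In the TGF-beta branch, Smad3 rose while Smad2 fell. Smad3 had 895, 564 and 619 at P1, 558, 355 and 353 at P7, 991, 1906 and 710.2 at P14 and 2806, 2254 and 2235 at P28. All P14 libraries exceeded those at P7, and all P28 libraries exceeded all others. The rises were 1.42 ± 0.31 (limma adjusted p = 0.00495), kept with every library left out, and 1.13 ± 0.31 (adjusted p = 0.0281), lost without P14 replicate 1 or 3 or P28 replicate 1 (adjusted p up to 0.126 without P14 replicate 3), with edgeR and under scaling by library totals alone (0.89, adjusted p = 0.0669, beside a median of -0.35 over all genes). Smad2 went from 753 to 806 at P7 to 364 to 424 at P14, a fall of 0.99 ± 0.25 (adjusted p = 0.0119). Smad4, the partner of all receptor Smads, fell from 724 to 794 to 313 to 437, by 1.10 ± 0.34 (adjusted p = 0.0317), a call lost for 5 libraries (adjusted p up to 0.101 without P14 replicate 3). The inhibitor Smad7 peaked at P14 with 192, 149 and 172 at P1, 261, 263 and 284 at P7, 671, 714 and 576 at P14 and 213, 202 and 224 at P28. It rose by 1.27 ± 0.24 (adjusted p = 0.00191) and fell by 1.61 ± 0.24 from P14 to P28 (adjusted p = 0.00121), with no overlap and with both calls kept for every library left out. Smad6, the other inhibitor, was at 13.8 to 35.8 at P14. The P14 peak of Smad7 coincided with that of the oligodendrocyte sum, whose part in it was not tested.

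**Figure D4:**
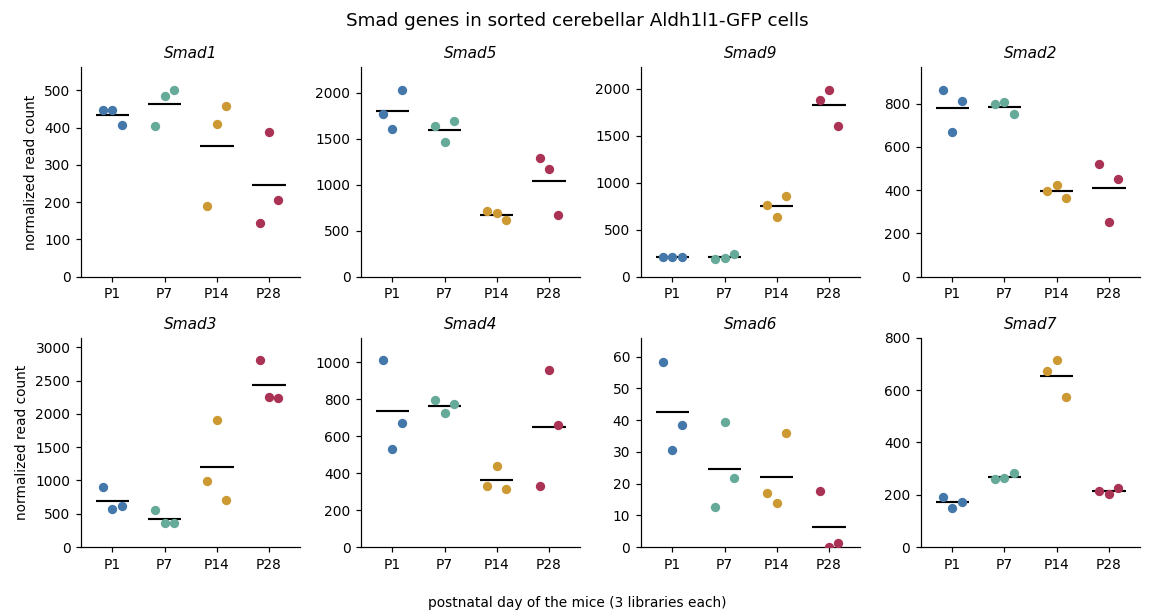
Normalized read counts (y axis, linear from 0) of the 8 Smad genes in the 3 libraries of each time point (x axis), with the mean as a black line. Smad9 and Smad3 were highest at P28, Smad5, Smad2 and Smad4 dropped from P7 to P14, and Smad7 was highest at P14.

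Taking the 113 other pathway genes listed, 92 passed the filter, 21 did not, and 3 of these had no read in any library. Of the 92, 2 rose and 5 fell between P1 and P7 (7.61% called), where 3.47% of all genes were called higher and 4.24% lower. In the next step 16 rose and 14 fell (32.6%), beside 10.8% and 10.0% of all genes. In the last, 7 rose and 10 fell (18.5%), beside 5.68% and 8.76%. Over the whole interval 17 were higher and 27 lower at P28 (47.8%), beside 14.6% and 20.0% of all genes. The median log2 fold change was -0.01, 0.20, -0.07 and -0.38, and was the same with genes at 0 reads in a group set to their limits. Reads of overlapping genes cannot be told apart for several genes named here and below, among them Bmp6 (with Txndc5), Bmp8b (with Oxct2b), Acvr2a (with Orc4), Eng (with Fpgs), Crim1 (with Fez2) and Junb (with Prdx2).

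**Figure D5:**
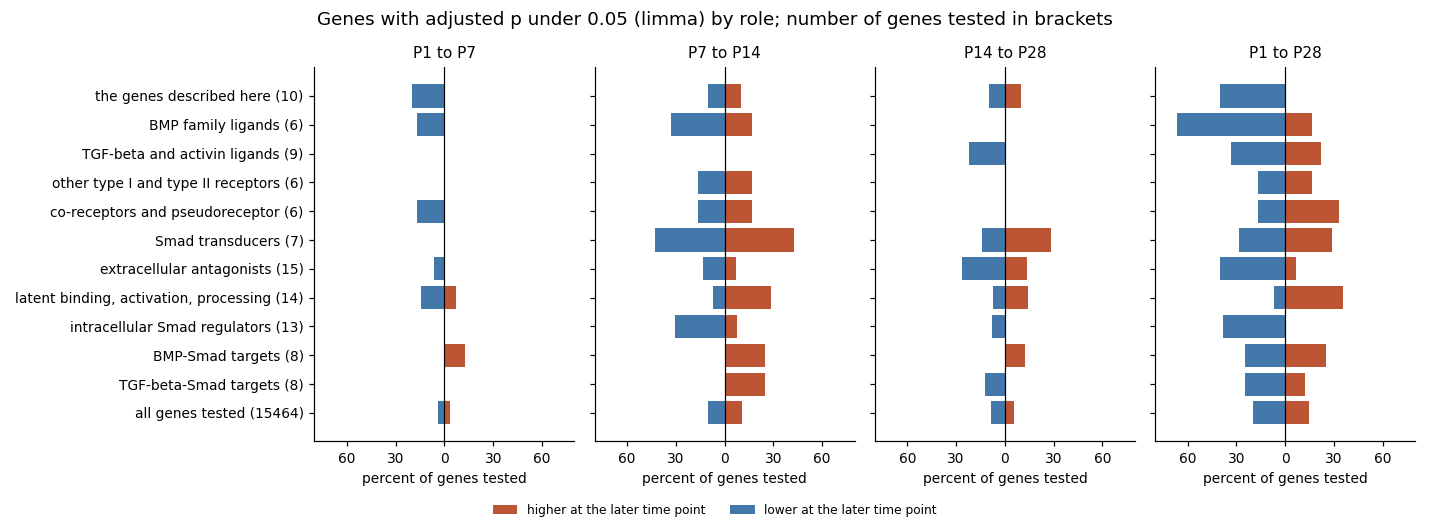
Percent of tested genes called at an adjusted p under 0.05 by limma (x axis), higher to the right and lower to the left, for the genes described here, for 10 lists of other pathway genes by role and for all genes tested (y axis, number of genes tested in brackets). From P7 to P14, 6 of 7 Smad genes were called against 20.9% of all genes, and lists of 6 to 15 genes move by a large percentage with each gene.

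The extracellular antagonists bind BMPs or activins before they reach a receptor. Of 19 listed, 15 passed the filter, and 1, 3, 6 and 7 were called (all genes: 7.70%, 20.9%, 14.4% and 34.6%). Those from P1 to P28 were 1 higher and 6 lower, beside 14.6% and 20.0% of all genes. Twsg1, which helps chordin hold BMPs, and Crim1, a membrane protein that tethers BMPs, had the highest mean normalized counts of the list, not adjusted for length. Twsg1 had 1588, 2129 and 1681 at P1, 1685, 1639.9 and 1859 at P7, 961, 1145 and 929.6 at P14 and 1755, 2134 and 1216 at P28. It fell by 0.78 ± 0.20 from P7 to P14 (limma adjusted p = 0.0139, lost without P7 replicate 3 or P14 replicate 3, up to 0.0622 without P7 replicate 3) and rose by 0.72 ± 0.20 from P14 to P28 (adjusted p = 0.0305, lost for 4 libraries, up to 0.0994 without P14 replicate 3). Crim1 rose from 136 to 206 at P7 to 419 to 1069 at P14, by 1.84 ± 0.37 (adjusted p = 0.00246), after a fall from P1 (413 to 479) of 1.30 ± 0.37 (adjusted p = 0.0438, lost for 7 libraries, up to 0.18 without P7 replicate 3). Fst (follistatin), which traps activins, went from 67.7, 32.7 and 32.6 at P7 to 0 reads in all 6 libraries at P14 and P28, at least 43.0-fold lower at P14 (adjusted p = 0.000128). Kcp, a chordin-like protein that can also enhance BMP signaling, fell from 94.2 to 269 at P14 to 0 to 12.2 at P28, by 4.78 ± 0.88 (adjusted p = 0.00362).

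TGF-betas are secreted in a latent form that is bound by latent TGF-beta binding proteins and released by integrins. All 14 genes of this list and of ligand processing passed the filter, and 3, 5, 3 and 6 were called (all genes: 7.70%, 20.9%, 14.4% and 34.6%). Those from P1 to P28 were 5 higher and 1 lower, beside 14.6% and 20.0% of all genes. The integrin subunits Itgav and Itgb8, which pair as a receptor that releases active TGF-beta, were the highest of the list per kb. Itgav had 2524, 3454 and 2567 at P1, 1623, 1619 and 1653 at P7, 3067, 3500.5 and 3066 at P14 and 4879.6, 4499.7 and 4536 at P28. All P7 libraries lay below all others, and Itgav fell by 0.79 ± 0.15 from P1 to P7 (limma adjusted p = 0.00423) and rose by 0.97 ± 0.15 from P7 to P14 (adjusted p = 0.0003), both kept with every library left out. Itgb8 had 1771, 1611 and 1786 at P1, 1009.6, 616 and 912 at P7, 1395, 1687 and 987 at P14 and 3376, 2742 and 3079 at P28. It fell by 1.05 ± 0.22 between P1 and P7 (adjusted p = 0.00767) and rose by 1.21 ± 0.22 from P14 to P28 (adjusted p = 0.00333), both kept with every library left out, and its rise of 0.68 ± 0.22 from P7 to P14 (adjusted p = 0.0398) was lost for 6 libraries (up to 0.182 without P7 replicate 2). The latent TGF-beta binding proteins Ltbp2 and Ltbp4 rose. Ltbp2 went from 11.1 to 22.1 at P1 to 42.2 to 204 at P7, by 2.41 ± 0.61 (adjusted p = 0.0262, lost without P1 replicate 1 or 3 or P7 replicate 2 or 3, up to 0.174 without P7 replicate 2). Ltbp4 went from 184 to 512 at P7 to 676 to 974 at P14, by 1.66 ± 0.40 (adjusted p = 0.00781), and within P7 both were highest in replicate 2, the library with the highest endothelial sum. Of the low genes, Itgb6 was at least 12.7-fold lower at P14 than at P7 (adjusted p = 0.0378, lost for 6 libraries, up to 0.123 without P7 replicate 1). Summed over 3 libraries, Itgb6 held 2 reads at P1 and 45 at P7, none at P14, and 27 at P28 that were all in replicate 1. The protease gene Tll2 dropped at least 11.9-fold from P14 to P28 (adjusted p = 0.0196, lost without P14 replicate 2 or 3, up to 0.0689 without P14 replicate 3).

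Of 13 intracellular regulators, all passed the filter, and 0, 5, 1 and 5 were called (all genes: 7.70%, 20.9%, 14.4% and 34.6%). For the count of 0 from P1 to P7, 5 had an unadjusted limma p under 0.05, and edgeR called 0. From P7 to P14, 4 fell and 1, Ski, a corepressor of Smads, rose. Zfp423, a zinc finger protein that joins BMP-activated Smads at their target genes and is needed for cerebellar midline formation, had 2860.2, 1983 and 2723 at P1, 3789.9, 2809.9 and 3359 at P7, 757, 610.4 and 936 at P14 and 1007, 629 and 1014 at P28. Every P14 and P28 library lay below every earlier one, and Zfp423 fell by 2.12 ± 0.23 from P7 to P14 (limma adjusted p = 1.68e-05). Skil, another Smad corepressor, fell from 2004 to 2148 to 911 to 976, by 1.14 ± 0.17 (adjusted p = 0.000308), and Trim33, a Smad4 ubiquitin ligase, from 2465 to 2506 to 1147 to 1309, by 1.02 ± 0.17 (adjusted p = 0.000519). These 3 calls were kept with every library left out. The dividing cell sum was also lower at P14 than at P7 in every library, and its part in these values was not tested. Smurf1, a ubiquitin ligase for BMP receptor Smads, went from 516 to 695 at P14 to 314 to 468 at P28, by -0.73 ± 0.23 (adjusted p = 0.0431), a call lost for 11 of the 12 libraries (up to 0.142 without P14 replicate 1).

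Of 9 genes known as targets of BMP-activated Smads, 8 passed the filter, and 1, 2, 1 and 4 were called (all genes: 7.70%, 20.9%, 14.4% and 34.6%). From P1 to P28, 2 were higher and 2 lower, beside 14.6% and 20.0% of all genes. The Id genes encode inhibitors of basic helix-loop-helix factors and are the usual readout of BMP signaling. Between P1 and P28, Id4 and Id3 moved in opposite directions. Id4 had 526, 494 and 451 at P1, 401, 203 and 389 at P7, 859, 1097 and 735 at P14 and 2123, 2046 and 2546 at P28. All P14 libraries exceeded the earlier ones and all P28 libraries exceeded those at P14, with rises of 1.48 ± 0.26 (limma adjusted p = 0.000859) and 1.33 ± 0.26 (adjusted p = 0.00457), kept with every library left out. Id3 and Id1 were named after their values were seen. Id3 went from 576 to 887 at P1 to 70.1 to 268 at P28, a fall of 2.19 ± 0.42 (adjusted p = 0.00104), and Id1 from 99.7 to 248 to 25.7 to 175, by -1.67 ± 0.62 (adjusted p = 0.0496, lost for 10 libraries, up to 0.16 without P1 replicate 2). Msx2, a homeobox gene induced by BMPs, had 40.0, 32.9 and 40.1 at P1, 201, 79.8 and 222 at P7, 592, 528 and 527 at P14 and 1080.0, 540.2 and 1467 at P28. Its libraries did not overlap between P1 and P7 or between P7 and P14, and it rose by 2.00 ± 0.42 (adjusted p = 0.0087; 0.0563 without P7 replicate 3) and by 1.84 ± 0.42 (adjusted p = 0.0062). Hey1, a repressor that Notch also induces, ranged from 341 to 889 and was not called. From P1 to P28, the BMP target genes called thus did not share a direction, and neither did the BMP receptor Smads Smad5 and Smad9. In the step from P7 to P14, 7 of the 8 target genes tested were fitted higher and 1 lower, with 2 called higher and 0 lower. Of all genes, 10.8% were called higher and 10.0% lower in that step. Of the 8, 3 had an unadjusted limma p under 0.05, so most of these fitted directions are not resolved.

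All 8 genes listed as targets of TGF-beta-activated Smads passed the filter, and 0, 2, 1 and 3 were called (all genes: 7.70%, 20.9%, 14.4% and 34.6%). For the count of 0 from P1 to P7, 1 had an unadjusted limma p under 0.05, and edgeR called 0. Col1a1 and Fn1, which encode a fibrillar collagen and fibronectin, were the highest per kb. Col1a1 had 7461, 9899 and 1804 at P1, 2711, 9803 and 4191 at P7, 3765, 2756 and 2920.2 at P14 and 1866, 1028 and 642 at P28, and was lower at P28 than at P1 by a log2 fold change of -2.25 ± 0.56 (limma adjusted p = 0.00692). It is also a marker of meningeal fibroblasts and the most abundant gene in their sum, so it is no separate readout. Without Col1a1, the other 7 meningeal markers had 12247, 26729 and 6864 at P1, where Col1a1 was also highest in replicate 2. At P28 they had 3975, 4254 and 4618, highest in replicate 3, where Col1a1 was lowest. Fn1 was 2836 to 10062 at P7, highest in replicate 2, and was not called. Junb, an immediate early gene, rose from 165 to 258 at P7 to 419 to 545 at P14, by 1.19 ± 0.35 (adjusted p = 0.0256, lost for 4 libraries, up to 0.115 without P7 replicate 3), and fell to 118 to 201 at P28, by 1.67 ± 0.35 (adjusted p = 0.00734). Ctgf rose by 1.24 ± 0.41 from P7 to P14 (adjusted p = 0.045), a call lost for 7 libraries (up to 0.198 without P7 replicate 3).

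For the 3 genes called in a consecutive step, the genes with the most similar course were found by Pearson correlation of log2(normalized count + 1) over the 12 libraries, among 10212 genes with a mean of at least 100. The 12 values share the 4 time points, the sort and the scaling, so the coefficients are descriptions. For Bmpr1a they were Arnt2, a basic helix-loop-helix transcription factor (r = 0.937), and Chl1, a neural adhesion molecule (r = 0.933). For Bmpr1b they were Man2a2, a mannosidase of N-glycan processing (r = 0.972), and Tmem5 (r = 0.965). For Tgfbr1 they were Fxyd6, a regulator of the sodium pump (r = 0.990), and Taf1d, a subunit of the RNA polymerase I factor SL1 (r = 0.984). Since these genes were chosen for their course, their log2 fold changes in the steps in which the signaling gene was called are given without a test. From P1 to P7 and from P14 to P28, the steps of Bmpr1a, Arnt2 differed by -0.85 and 1.35 and Chl1 by -0.68 and 0.51. From P1 to P7 and from P7 to P14, the steps of Bmpr1b, Man2a2 differed by -0.70 and 0.89 and Tmem5 by -0.74 and 0.80. In the last pair of steps, those of Tgfbr1, Fxyd6 differed by -2.99 and -2.40 and Taf1d by -0.74 and -0.96.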

How the data were processed

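RNA from GFP-positive cells was sequenced as paired-end libraries made from 10 ng of total RNA. The authors aligned reads to mm10 with STAR (2.5.0a), counted them per gene on UCSC transcripts with GenomicAlignments and deposited a signal per gene and library, namely the count divided by 1 DESeq2 (1.30.1) size factor (versions per the submitters' processing notes). In the deposited table, 100.0% of values were whole multiples of 1 read (tolerance 0.01 reads), so reads per library could be recovered. These were 6399499 to 14733985, and limits at 0 reads and intervals cover counting error only. All 12 columns were matched to samples through the column names that the labels quote. Every column name carries P28, also those of samples labelled P1, P7 and P14, so the names disagree with the labelled ages, and all time comparisons rest on the labels. Of 24421 entries, 27 symbols had turned into dates and 2 occurred more than once. Whether counting used strand is not given in the sources used here.

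The main test was limma (3.58.1, R 4.3.3; trend) on log2(value + 1) over all 12 libraries for 15464 genes with at least 10 in at least 3 libraries, with Benjamini-Hochberg adjustment over these genes and a threshold of 0.05. Alternatives were DESeq2 (1.42.0) and edgeR (4.0.16) on recovered reads, library totals, TMM, pseudocounts of 0.1 and 10, other filters, only the 6 libraries compared, a replicate block, an unadjusted p under 0.05 with an absolute log2 fold change over 0.75 (the study gives 0.75 and 0.05 without naming a log scale or adjustment) and each library left out. On data simulated for P1 to P7, limma called 123 of 200 genes that had been changed by log2 2, and 6 unchanged genes, of 15441 tested. Exon lengths came from GENCODE M21 and promoters from RefSeq. The 10 genes and the lists were chosen with earlier results of these data known. Named of each list were its 2 genes with the highest mean value and, in each consecutive step, the 2 largest changes among genes called without overlap between groups, with exceptions marked. A gene that the rule names is not reported here.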

Additional observations from a re-analysis of the deposited data

How the results depend on the processing

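The number of genes called changed by over 1.5 times under some alternatives. From P1 to P7, where limma called 1191 genes and 7 of the other pathway genes, DESeq2 called 1858 and 15, a fit of only the 6 libraries compared called 2820 and 25, and an unadjusted p under 0.05 with an absolute log2 fold change over 0.75 gave 2198 and 22. From P14 to P28 (2232 and 17), the 6 libraries alone gave 766 and 7 and the unadjusted rule 3725 and 26, while requiring 10 normalized counts in every library left 10 pathway genes called. From P1 to P28, the 6 libraries alone called 29 pathway genes in place of 44. Of the 10 signaling genes, the 2 calls from P14 to P28 became 1 with edgeR, library totals alone, a pseudocount of 10, no filter on low values or the filter on every library, and 0 with the 6 libraries alone. The unadjusted rule also gave 2 there, but Bmpr1a (0.71) and Tgfbr1 (-0.66) did not meet its fold limit and Bmp2 (-2.84) and Smad6 (-2.60) did. It also left out the fall of Bmpr1a from P1 to P7 (-0.68) and took in Bmp4 (1.33) there, Tgfb2 (-0.88) from P7 to P14, and Bmp4 (1.22) and Tgfb2 (-0.89) from P1 to P28. The 4 calls from P1 to P28 became 1 with edgeR, 2 with no filter, 2 with the filter on every library and 1 with the 6 libraries alone. The filter on every library left 8 of the 10 genes to test, without Bmp2 and Smad6. Bmpr1b from P7 to P14 and Tgfbr1 from P7 to P14 and from P1 to P28 stayed called with every library left out in turn.

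Leaving out 1 library at a time, 651 (without P7 replicate 2) to 1536 (without P28 replicate 3) genes were called from P1 to P7, 2173 to 3933 from P7 to P14, 1242 (without P14 replicate 3) to 2807 (without P28 replicate 1) from P14 to P28 and 3916 to 5751 from P1 to P28. The calls among the 10 genes ranged from 0 to 3, 2 to 3, 0 to 3 and 2 to 5, and those among the other pathway genes from 3 to 10, 19 to 32, 11 to 19 and 33 to 45. These fits kept 11 libraries with a shared spread, so the libraries left at a time point were assumed to vary like the others.

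The labels do not say whether libraries with the same replicate number were paired, and weak correlations across genes cannot settle it. Deviations from the time point means of libraries with the same number correlated across genes at r from -0.029 to 0.139 (median 0.0313, 1 of 18 pairs over 0.1), and those of other pairs at -0.105 to 0.0536 (median -0.0112). The value of 0.139 was that of replicate 2 at P1 with replicate 2 at P7. With the replicate number as a block, 1163, 3153, 2136 and 5334 genes were called in the 4 comparisons, with 2, 2, 1 and 5 of the 10 genes and 9, 27, 16 and 44 of the other pathway genes. Under the block Tgfbr1 was not called from P14 to P28 (limma adjusted p = 0.0627) and Tgfb2 was called from P1 to P28 (adjusted p = 0.0418).

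The sign of a log2 fold change turned in differences that were not called, most of them small. The largest were Bmp7 from P14 to P28 (-0.63) and Tgfbr2 from P1 to P7 (0.51). From P1 to P7, Bmp2 was -0.16 with DESeq2, -0.14 with edgeR and -0.0084 with a pseudocount of 10, and Bmpr2 0.0091 with edgeR, 0.056 with library totals and 0.0080 with TMM. From P7 to P14, Bmp2 was 0.28 with DESeq2 and 0.32 with edgeR, Tgfbr2 -0.075, -0.037 and -0.086 with DESeq2, edgeR and library totals, and Bmpr1a -0.13 with library totals. From P14 to P28, Bmp7 was 0.079 with DESeq2 and 0.075 with edgeR, Tgfbr2 0.0067 and 0.0021, and with library totals Bmpr2 was -0.0042 and Tgfb2 -0.036. From P1 to P28, Bmpr1a was -0.29 with library totals and Bmpr2 0.016 with edgeR. Leaving out 1 library, the values ranged across 0 from P1 to P7 for Bmp2 (-0.48 to 0.48), Bmpr2 (-0.054 to 0.056) and Tgfbr2 (-0.065 to 0.91), from P7 to P14 for Bmp2 (-0.74 to 0.45), Bmp7 (-0.19 to 0.13), Bmpr1a (-0.021 to 0.20), Smad6 (-0.51 to 0.27) and Tgfbr2 (-0.23 to 0.75), from P14 to P28 for Bmp4 (-0.81 to 0.24), Bmp7 (-1.30 to 0.63), Tgfb2 (-0.37 to 0.52) and Tgfbr2 (-0.42 to 0.30), and from P1 to P28 for Bmpr2 (-0.095 to 0.026). The cause of these changes was not tested. Of the other values for single genes, 791 kept their direction and side of the threshold, 57 fell below it and 19 passed it.

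Depth and sample number limit these results. Bmp2 and Smad6 rest on 0 to 2 reads in 2 of the 3 libraries at P28, and with 3 libraries a time point a single library decided several calls, as given beside them.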
